A study of Homo sapiens with 7 samples.

Results

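The 4 HOX gene clusters of the human genome were examined for binding of FOXA1 and SETD7 in 2 prostate cancer cell lines. A peak, an interval where immunoprecipitated DNA was enriched, was included when its midpoint lay in 1 of 4 windows on build hg19: chr7:27030000-27350000 (HOXA), chr17:46500000-46910000 (HOXB, with HOXB13), chr12:54230000-54550000 (HOXC) and chr2:176850000-177160000 (HOXD). These windows, chosen by position and not by signal, span 1.36 Mb and hold the 38 HOX genes considered here, among them HOXA2 to HOXA13, HOXB1 to HOXB13, HOXC4 to HOXC13 and HOXD1 to HOXD13. They also include flanks beside these genes. A HOX peak or HOX site below is one inside a window, and it may lie beyond the HOX genes. The windows held 370 peaks, 365 of FOXA1 and 5 of SETD7. Overlapping peaks of the 7 lists were merged into 131 sites, of 193692 sites in the whole series, and 127 of the 131 had a FOXA1 peak. Of the 131, 1 site joined more than 1 peak of a single list.

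HOX genes encode homeodomain transcription factors that give cells their position along the body axis. Within a cluster the genes stand in the order in which they are used from head to tail, so that the genes numbered highest act in the hindmost structures. The posterior genes HOXA13 and HOXD13 act in the developing urogenital tract, and HOXB13 is a lineage factor of the prostate epithelium that is found with the androgen receptor on chromatin. FOXA1 is a forkhead pioneer factor that opens chromatin for the androgen receptor at prostate enhancers, and SETD7 is a lysine methyltransferase of histone and other proteins. LSD1 is a lysine demethylase. In RefSeq, PRAC1, PRAC2 and several noncoding genes stand between HOXB13 and HOXB9, so that HOXB13 is set apart from the rest of its cluster.

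Chromatin was crosslinked with 1% formaldehyde, and each of 7 groups had 1 library and 1 peak list. In 22Rv1 cells, named CWR22-Rv1 in the labels, SETD7 was mapped in vehicle cells. FOXA1 was mapped in vehicle cells, in cells with a control hairpin (shCTL) and in cells carrying a SETD7 knockdown hairpin (shSETD7), both hairpins being stably expressed. LNCaP cells were given DMSO, the LSD1 inhibitor GSK2879552, or GSK2879552 with the SETD7 inhibitor PFI-2 (called the combination, after the sample title, since 1 label reads with or without PFI-2), each for 4 hours before FOXA1 was mapped. No clone number, SETD7 level or DNA copy number was used here. The whole FOXA1 lists held 63952 to 83994 peaks and the SETD7 list 25526. All vehicle FOXA1 peaks have siNTC in their deposited names, and names in the shCTL and shSETD7 lists share a prefix that the vehicle list does not have. Read depth is unknown from these lists. With 1 library per group there is no spread between replicates, so no difference between conditions was tested, and the 95% Wilson intervals cover counting error only. The hg19 positions of single genes were not used here, so a site is assigned to a cluster and not to a gene.

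No hg19 sequence was read for the peaks. The promoters of the HOX genes in RefSeq (build GRCh38.p14) were searched on both strands for TGTTTAC and TGTTTGC, core forms of the forkhead motif, which do not overlap each other. The search took the 300 bases from 250 before to 50 after each gene start. It covered 20 of the 38 members with 26 distinct sequences, and did not cover HOXA5, HOXB2 to HOXB9, HOXB13, HOXC6 to HOXC13 or HOXD9. Of these 26, 1 held a match, or 3.85%, against 7.17% of all 34943 distinct promoters. The match lay in the promoter shared by HOXC4 and HOXC5, a pair of anterior genes of the HOXC cluster. Its 250 bases before the start are shown because this promoter was the only match among the 26 sequences searched. They are on the plus strand of GRCh38.p14, with both matches in capitals.
HOXC4 and HOXC5, chr12:54016638-54016887: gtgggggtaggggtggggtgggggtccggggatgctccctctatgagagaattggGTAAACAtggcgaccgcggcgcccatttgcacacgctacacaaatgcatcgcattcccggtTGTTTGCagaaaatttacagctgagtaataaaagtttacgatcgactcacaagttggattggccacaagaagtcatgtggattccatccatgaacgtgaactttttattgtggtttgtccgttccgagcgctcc
The first match is TGTTTAC on the minus strand and the second TGTTTGC on the plus strand, starting at positions 56 and 117 from the left. The peaks are on another build, so no peak was placed on this promoter, and a match is not evidence of binding.

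FOXA1 peaks were dense in 3 of the 4 windows and sparse in HOXD. In vehicle 22Rv1 cells HOXA, HOXB and HOXC held 14, 18 and 16 FOXA1 peaks, and HOXD held 3. The corresponding densities were 43.8, 43.9, 50 and 9.68 peaks per Mb. Chromosomes 7, 17, 12 and 2 held 30.5, 19.8, 31.8 and 17.5 peaks per Mb in the same list, counted between the first and last peak of each chromosome. In LNCaP with DMSO the 4 windows held 14, 17, 18 and 7 peaks, or 43.8, 41.5, 56.3 and 22.6 per Mb. The LNCaP chromosomes held 28.2, 29.6, 29.5 and 25.1 per Mb. HOXA, HOXB and HOXC were thus 1.40 to 2.79 times as dense as their chromosomes in all 6 FOXA1 lists. HOXD ranged from 0.552 to 1.02 times its chromosome, and was below it in every FOXA1 list but shSETD7.

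**Figure D1:**
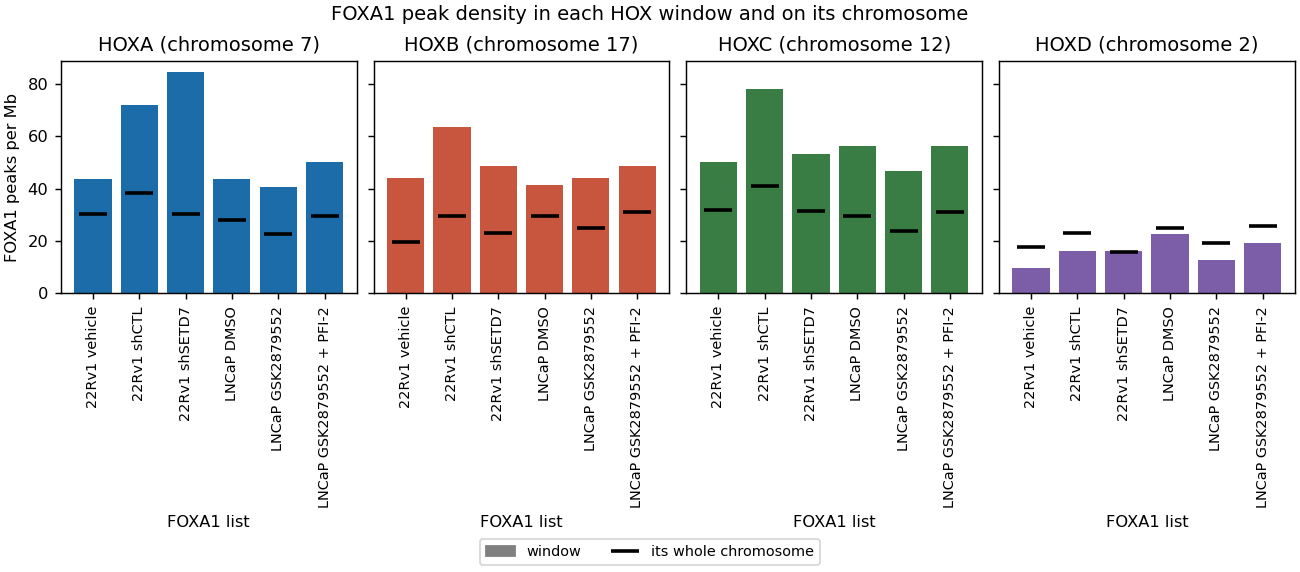
FOXA1 peaks per Mb (y axis) in each HOX window, as bars, and on the chromosome that carries it, as black lines, in the 6 FOXA1 lists (x axis), with 1 library per bar. The HOXA, HOXB and HOXC bars stand above their chromosomes in every list, while the HOXD bars reach 9.68 to 22.6 peaks per Mb.

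The neighbourhood of each cluster was compared as well, as the 1 Mb on each side of the window. Around HOXB vehicle FOXA1 had 23 peaks per Mb, so the window was denser than its surroundings. Around HOXA and HOXC it had 40.0 and 44.5, beside 43.8 and 50 in the windows. The hairpin lists differed from vehicle around HOXA: shCTL had 51.0 peaks per Mb on the sides and 71.9 in the window, and shSETD7 had 41.5 and 84.4. Around HOXC shCTL had 57.5 and 78.1 and shSETD7 52.5 and 53.1. Around HOXD the vehicle list had 5.50 against 9.68 in the window, so its sparse stretch of chromosome 2 was wider than the cluster. In LNCaP DMSO the 1 Mb on each side of HOXD held 31.0 peaks per Mb, against 22.6 in the window. The surroundings of HOXD therefore held more peaks than the window in that LNCaP list and fewer in the vehicle 22Rv1 list.

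Peak scores were compared between clusters. Each peak's score, the authors' own whole number, was turned into a percentile within its list, where 100 is the highest score and 50 the middle. Over all 4 windows the median percentile was 53.2 in vehicle, 50.8 in shCTL, 64.3 in shSETD7, 53.3 in DMSO, 60.2 in GSK2879552 and 52.1 in the combination. The middle of each list is 50 by construction. Each median was above it, but the counting interval of the median included 50 in every list except shSETD7 (53.5 to 75.8). Without the outer 50 kb of each window the medians fell to 51.7 in vehicle and 47.5 in shCTL. They rose to 67.3 in shSETD7, 57.8 in DMSO, 65.3 in GSK2879552 and 59.5 in the combination. HOXB had medians of 74.0, 72.0 and 72.5 in the DMSO, GSK2879552 and combination lists, the highest of the 4 clusters in each of these. In 22Rv1 the highest cluster median was that of HOXC in vehicle (62.6) and shSETD7 (77.0) and that of HOXB in shCTL (60.1). HOXA had the lowest cluster median in vehicle (40.5), shSETD7 (53.5) and both inhibitor lists, while HOXD had it in shCTL (43.5) and DMSO (30.0). The cluster medians have no intervals here and rest on few peaks, with 3 for HOXD in vehicle. Their order changed between lists, and differences between clusters were not tested.

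**Figure D2:**
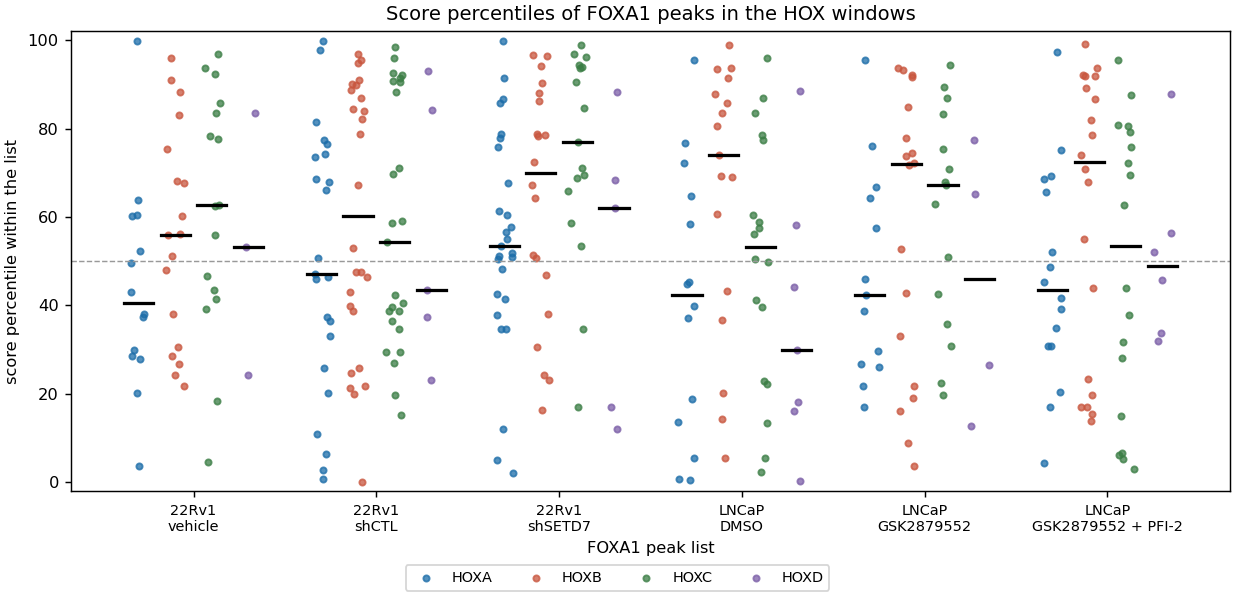
Score percentile within the list (y axis) of each FOXA1 peak in the HOX windows, by list (x axis) and cluster (colour), with a black line at the median of each cluster and a dashed line at 50. HOXB medians of the LNCaP lists lie between 72.0 and 74.0, and all clusters spread from weak to strong peaks.

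The peaks above percentile 90 of a list were counted next. They included 15 of 79 HOX peaks in shCTL, where 10.0% of the whole list lies by construction. In shSETD7 they included 13 of 69, and the share of HOX peaks there was 19.0% in shCTL and 18.8% in shSETD7. There were 6 of 51 in vehicle, 6 of 56 in DMSO, 6 of 50 in GSK2879552 and 7 of 60 in the combination, shares of 10.7% to 12%. The whole lists give 9.97% for vehicle and 9.99% for DMSO. Of the 15 in shCTL, 7 were in HOXC and 5 in HOXB.

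Sites common to both lines and every treatment were then listed. Of the 127 FOXA1 sites, 17 had a peak in all 6 FOXA1 lists, or 13.4% (8.53 to 20.4), against 8.43% of the 173005 FOXA1 sites of the series. HOXC had 7 of these 17, HOXB 6, HOXA 3 and HOXD 1. The 7 of HOXC lay within 74.8 kb, from 54372017 to 54446794. In HOXB, 5 of the 6 lay within 62.5 kb at the high end of the window, from 46834161 to 46896658, and the sixth lay 264 kb before them. Another 40 sites had a peak in a single FOXA1 list, or 31.5%, against 38.7% of all sites.

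**Figure D3:**
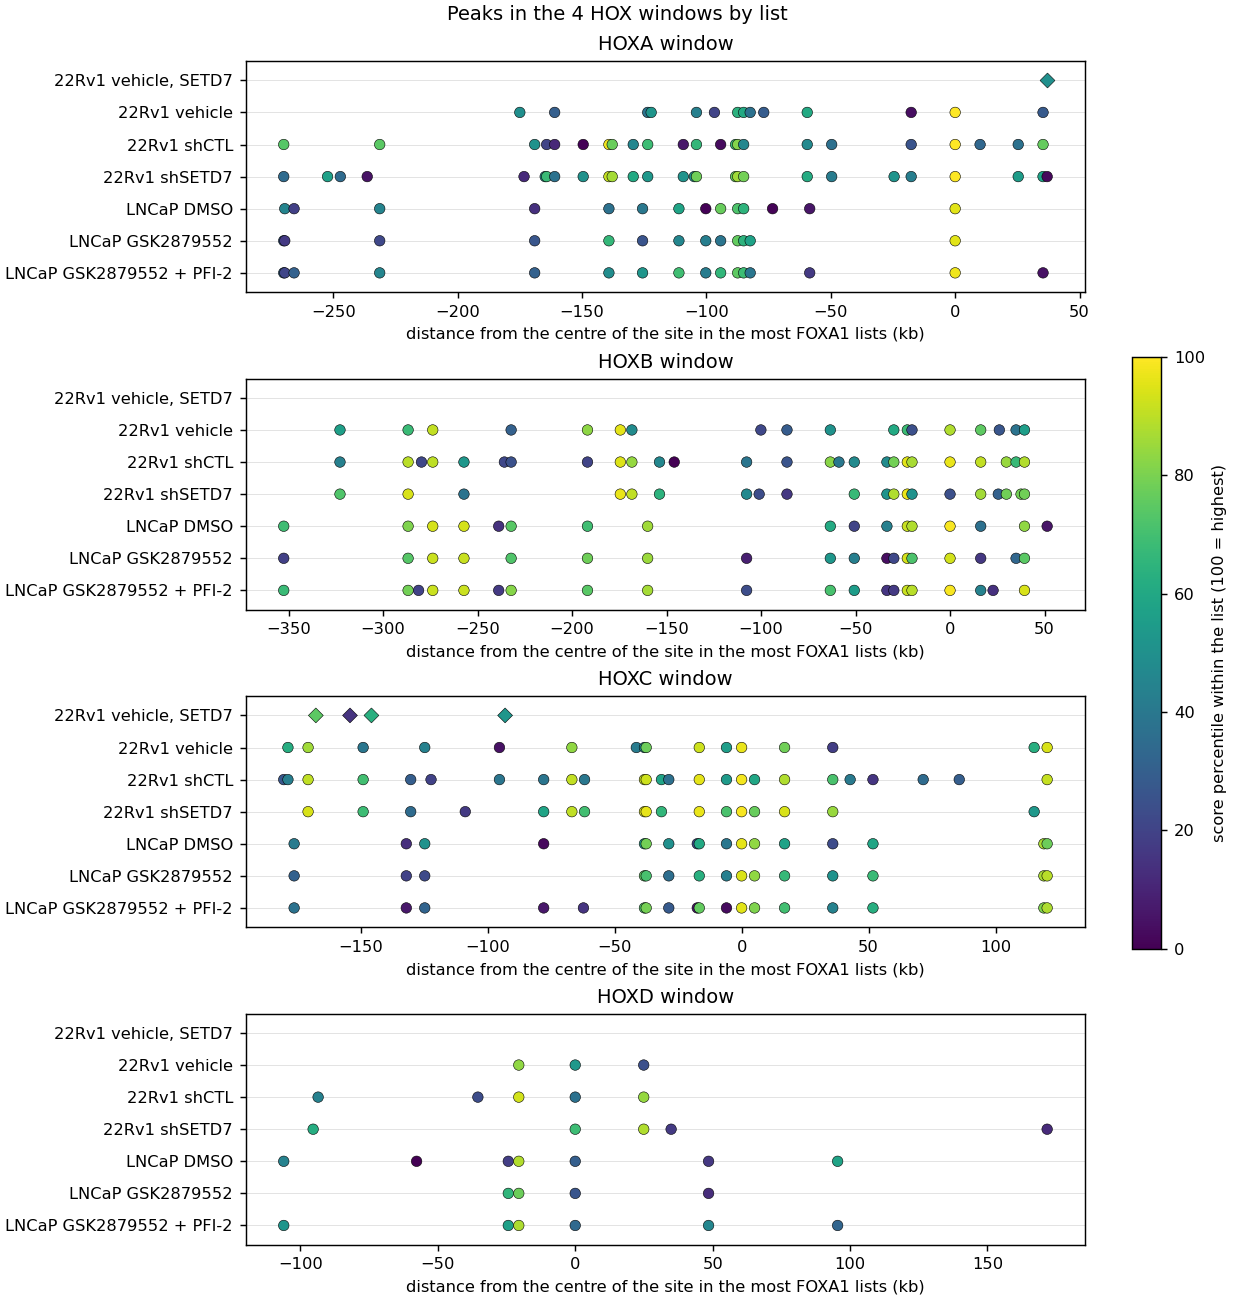
Peaks of the 7 lists (rows) along each HOX window, as distance in kb (x axis) from the centre of the site found in the most FOXA1 lists, coloured by score percentile within the list. Circles are FOXA1 and diamonds SETD7, and the columns of 6 circles are the sites in all FOXA1 lists, crowded near 0 in HOXC and at the high end of HOXB.

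In the HOXA window the leading site was at chr7:27299700-27300236. Of the 131 sites it ranked highest in vehicle, shCTL, shSETD7 and GSK2879552, and a HOXB site ranked highest in DMSO and the combination. Its FOXA1 percentile was 99.9 in vehicle, 99.9 in shCTL, 99.8 in shSETD7, 95.5 in DMSO, 95.4 in GSK2879552 and 97.4 in the combination. It was at rank 79 of the 83994 shCTL peaks, with a score of 10908, and it had no SETD7 peak. This site was strong in both lines under all treatments. The other HOXA sites in all 6 lists, at chr7:27212369-27212720 and chr7:27214770-27215127, had median percentiles of 75.6 and 64.5 over the FOXA1 lists. They lay 84.6 kb or more from the strongest one.

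In HOXC the leading site was at chr12:54410261-54410738. Its percentile was 96.8 in vehicle, 98.4 in shCTL, 99.0 in shSETD7, 95.9 in DMSO, 94.3 in GSK2879552 and 95.4 in the combination. It was thus above percentile 90 in all 6 lists, as was the leading HOXA site. The site at chr12:54393604-54394058 was at 92.4, 96.0 and 96.8 in the vehicle, shCTL and shSETD7 lists and at 60.4, 63.0 and 75.8 in the DMSO, GSK2879552 and combination lists. It stood higher in each 22Rv1 list than in any LNCaP list. The third, at chr12:54372703-54373164, was at 77.7, 92.5 and 96.2 in 22Rv1 and at 78.6, 71.0 and 79.3 in LNCaP, so here the vehicle list and the LNCaP lists overlapped.

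In HOXB the leading site was at chr17:46856609-46857298. Its percentile was 99.0 in DMSO, 93.1 in GSK2879552 and 99.2 in the combination, and it was 88.2 in vehicle, 96.8 in shCTL and 24.3 in shSETD7. The scores behind the last pair were 2167 in shCTL and 40 in shSETD7, where the middle scores of the lists were 136 and 82. The shSETD7 library was the only one of 6 in which this site was weak. The lists differ in length and each group has 1 library, so the difference was not tested and these are values side by side. The next site, at chr17:46834161-46834565, was at 68.2, 95.4 and 96.5 in vehicle, shCTL and shSETD7 and at 91.5, 93.6 and 91.8 in DMSO, GSK2879552 and the combination. There shSETD7 was the highest of the 6. The site at chr17:46896056-46896658 was at 55.9, 88.7 and 78.2 in 22Rv1 and at 83.4, 74.5 and 93.8 in LNCaP, in the order of lists just given.

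HOXD had 1 site in all 6 lists, at chr2:176962298-176962608, and it was a middling one. Its percentile was 53.2, 37.4 and 68.4 in vehicle, shCTL and shSETD7 and 30.0, 26.5 and 33.7 in DMSO, GSK2879552 and the combination. The strongest HOXD site, at chr2:176941634-176942189, was at 83.5 in vehicle, 93.0 in shCTL, 88.4 in DMSO, 77.4 in GSK2879552 and 87.8 in the combination and had no peak in shSETD7. A further one, at chr2:176987172-176987577, was at 24.3, 84.3 and 88.2 in vehicle, shCTL and shSETD7 and had no LNCaP peak.

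The HOX sites of the 2 lines were then compared, and most shares lay near those of the whole lists. Of the 51 vehicle FOXA1 peaks, 28 had no LNCaP DMSO peak, against 51.7% of the whole list, and 23 had one, or 45.1% (32.3 to 58.6) against 48.3%. By cluster this share was 21.4% in HOXA (7.57 to 47.6), 55.6% in HOXB (33.7 to 75.4), 50% in HOXC (28.0 to 72.0) and 66.7% in HOXD, with 3 peaks (20.8 to 93.9). Of the 56 DMSO peaks, 41.1% had a vehicle peak (29.2 to 54.1), against 39.2% of the DMSO list. Over all lists, 63 FOXA1 sites were in 22Rv1 lists only, or 49.6% (41.1 to 58.2) against 44.9% of all sites, and 23 were in LNCaP lists only, or 18.1% (12.4 to 25.7) against 25.8%. Sites in all 3 FOXA1 lists of 22Rv1 and in no LNCaP list numbered 13, or 10.2% (6.08 to 16.7), against 3.9% of all sites. The reverse, all 3 LNCaP lists and no FOXA1 list of 22Rv1, held for 11, or 8.66% (4.91 to 14.8), against 11.4%. The first share was above that of all sites by more than its counting interval, and the interval of the second includes that of all sites.

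Several of these line-restricted sites were strong, and they are named here after their values were seen. In HOXB the site at chr17:46682256-46682720 was at 95.9, 94.7 and 96.7 in vehicle, shCTL and shSETD7. It had no peak in any LNCaP list. Further along the window, the site at chr17:46696721-46697160 was at 85.7, 84.8 and 86.7 in DMSO, GSK2879552 and the combination and had no peak in 22Rv1. The HOXB window thus held strong sites of either line. In HOXC the sites at chr12:54239431-54240159 and chr12:54343446-54343871 were at 83.4 to 93.9 in the 22Rv1 FOXA1 lists and had no LNCaP peak, and the site at chr12:54529325-54529692 was at 80.7 to 87.0 in LNCaP with no 22Rv1 peak.

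FOXA1 at HOX sites after SETD7 knockdown was read from the control and SETD7 hairpin lists. Of the 79 shCTL peaks in the windows, 26 had no shSETD7 peak, against 55.5% of the whole shCTL list. The other 53 had one, or 67.1% (56.1 to 76.4). This lay above the 44.5% of the whole list and the 48.5% found for peaks of the same score deciles, by more than counting error. That error treats neighbouring peaks as independent, so the interval may be too narrow. The share also lay above the 53.8% found in the 1 Mb on each side of the windows (48.2 to 59.3), although these intervals overlap. By cluster the share was 82.6% in HOXA (62.9 to 93.0), 65.4% in HOXB (46.2 to 80.6), 60.0% in HOXC (40.7 to 76.6) and 40.0% in HOXD, with 5 peaks (11.8 to 76.9). In the surroundings it was 41.2% for HOXA (32.1 to 50.9), 60.6% for HOXB, 59.1% for HOXC and 65.0% for HOXD. HOXA had the largest gap to its surroundings, and it was left out after these values were seen. In the other 3 windows together the share was 60.7% (47.6 to 72.4), against 60.2% in their surroundings (53.3 to 66.7). That interval lay above the 44.5% of the whole list. Leaving out the window with the largest gap lowers the difference by construction, so where the excess lies was not tested. Peaks of the same score deciles gave 44.3% for HOXA, 51.1% for HOXB, 49.5% for HOXC and 49.1% for HOXD. Only the HOXA interval lay above its value, and the interval of the other 3 windows together included theirs.

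Vehicle cells give a further list of cells without the SETD7 hairpin. Of the 79 shCTL peaks, 38 had no vehicle peak, against 48.7% of the whole list, and 51.9% had one (41.1 to 62.6). In HOXA 39.1% had a vehicle peak (22.2 to 59.2), where 60.8% did in the surroundings (51.1 to 69.7). HOXB ran the other way, with 61.5% in the window (42.5 to 77.6) and 43.9% in the surroundings (32.6 to 55.9). For each cluster the intervals of window and surroundings overlap. Peaks of the same score deciles gave 50.9% for HOXA and 60.5% for HOXB, each within the interval of its window. Of the 104 HOX sites with a FOXA1 peak in 22Rv1, 32 were in all 3 lists, or 30.8% (22.7 to 40.2), against 19.5% over the genome. Another 21 were in shCTL and shSETD7 but not in vehicle, or 20.2% (13.6 to 28.9), against 9.44%, and 10 of these 21 were in HOXA. The strongest of them, named after its values were seen, was at chr7:27160467-27161131, with percentiles of 97.7 in shCTL, 91.4 in shSETD7, 37.1 in DMSO, 66.8 in GSK2879552 and 48.7 in the combination. The shCTL and shSETD7 lists share a name prefix that the vehicle list lacks, and whether this has a part in the count was not tested. Conversely, 10 of the 51 vehicle peaks had no shCTL peak, against 33.0% of the vehicle list, and 80.4% had one (67.5 to 89.0) against 67.0%. Peaks of the same score deciles gave 69.3%, within that interval. Vehicle peaks with an shSETD7 peak made up 64.7% (51.0 to 76.4), against 43.4% of the vehicle list and 45.1% for the same score deciles. The 22Rv1 sites outside these patterns numbered 9 in vehicle and shCTL only and 1 in vehicle and shSETD7 only, shares of 8.65% and 0.962% against 14.0% and 2.49% over the genome. Those in vehicle alone numbered 9, in shCTL alone 17 and in shSETD7 alone 15. Their shares were 8.65%, 16.3% and 14.4%, against 14.1%, 22.2% and 18.3%.

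**Figure D4:**
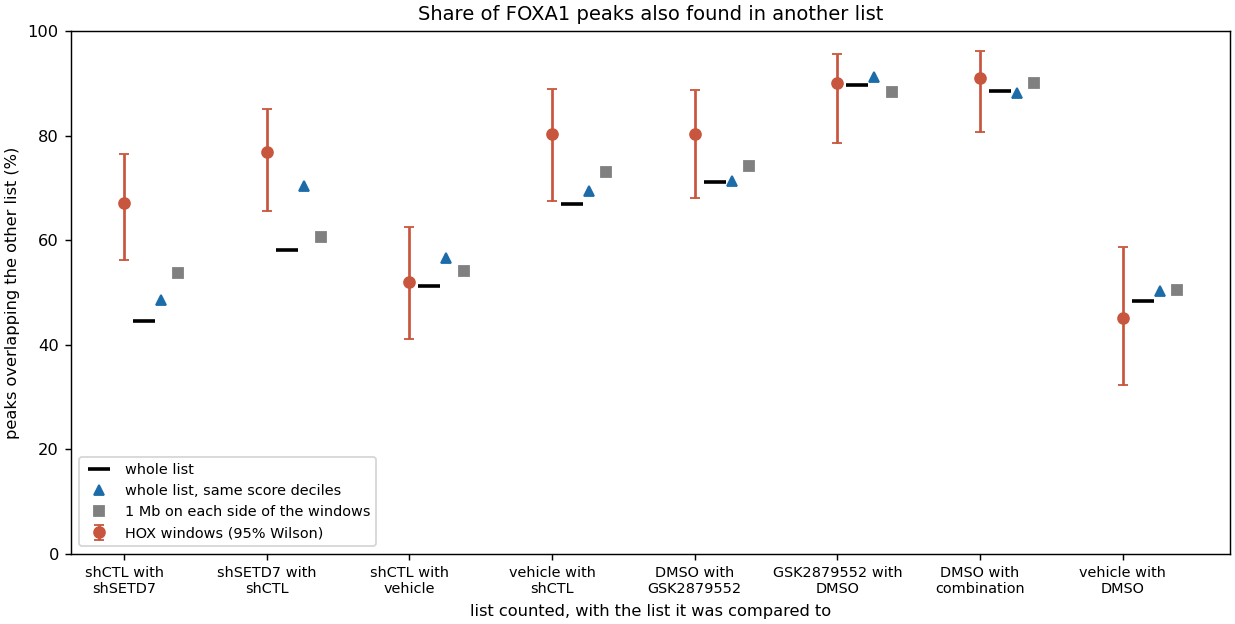
Share of FOXA1 peaks (y axis, percent) of one list that overlapped a peak of another (x axis, list counted and list compared): HOX windows with 95% Wilson intervals (circles), whole list (lines), whole list at the same score deciles (triangles) and the 1 Mb on each side of the windows (squares). The HOX share of shCTL peaks with an shSETD7 peak, 67.1%, stands above all 3 references (without HOXA it is 60.7%), while the LNCaP shares lie within counting error of them.

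The stronger HOX sites without an shSETD7 peak were then listed. Among the 40 shCTL peaks above percentile 50, 7 had no shSETD7 peak, or 17.5% (8.75 to 31.9), against 39.6% of all shCTL peaks above percentile 50. Of these 7, 5 were peaks in vehicle cells and 6 had a peak in all 3 LNCaP lists. The same shares over the whole shCTL list were not counted, so these counts describe the 7 peaks only. The highest was the HOXD site at chr2:176941634-176942189 (shCTL score 1212), whose nearest shSETD7 peak was 20.2 kb away. In HOXC the site at chr12:54530581-54531024 was at 93.8 in vehicle, 91.4 in shCTL, 77.5 in DMSO, 89.3 in GSK2879552 and 87.6 in the combination. In HOXB the site at chr17:46582986-46583452 was at 91.0, 90.1, 93.5, 92.0 and 91.8 in the same order. Each of these 3 sites was present in 5 of the 6 FOXA1 lists and absent only from shSETD7.

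In the other direction, 16 of the 69 shSETD7 peaks in the windows had no shCTL peak, against 41.8% of the whole list. The share with one was 76.8% (65.6 to 85.2), against 58.2% of the whole list and 70.4% for the same score deciles. The 3 strongest without an shCTL peak were at chr17:46894332-46894723, chr2:176866901-176867266 and chr7:27047579-27047859. Their shSETD7 percentiles were 78.8, 62.0 and 56.6, and they had no peak in any other list. Of the 16, 1 was a peak in vehicle cells and none was in all 3 LNCaP lists. The whole shSETD7 list was not counted in this way, so these counts describe the 16 peaks only.

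LSD1 inhibition in LNCaP was examined for the same windows. Of the 56 DMSO peaks, 11 had no GSK2879552 peak, against 28.8% of the DMSO list, and 80.4% had one (68.2 to 88.7). The whole list gave 71.2% and its peaks of the same score deciles 71.3%, so the HOX share was not distinguishable from either at this count. The 11 had a median percentile of 14.3, against 60.4 for those with a GSK2879552 peak. Of the 29 DMSO peaks above percentile 50, 1 had no GSK2879552 peak, or 3.45%, near the 5.2% of all DMSO peaks above percentile 50. It was the HOXD site at chr2:177057753-177058124 at 58.2, which was at 32.0 in the combination. The next strongest were the HOXD site at chr2:176856117-176856641, at 44.3 in DMSO and 52.0 in the combination, and a DMSO peak at chr12:54446026-54446255, at 22.9. That last peak lay 0.213 kb from a GSK2879552 peak of the same merged site and overlapped no combination peak.

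GSK2879552 peaks without a DMSO peak numbered 5 of 50, against 10.4% of that list, and 90% had one (78.6 to 95.7) against 89.6%. The strongest was in HOXA at chr7:27217458-27217721, at 57.4 in GSK2879552, 39.3 in the combination and 37.4 in vehicle 22Rv1. The next were in HOXB at chr17:46891737-46892069, at 33.1 in GSK2879552, and in HOXA at chr7:27029936-27030262, at 29.8. Both of these were also shCTL peaks, at 67.2 and 73.5. At the last site the GSK2879552 peak lay 0.15 kb from a DMSO peak.

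The combination was then set beside DMSO. Of the 56 DMSO peaks, 5 had no peak of the combination, against 11.4% of the DMSO list, and 91.1% had one (80.7 to 96.1) against 88.6%. These 5 lay at percentile 22.9 or below. Conversely, 9 of the 60 peaks of the combination had no DMSO peak, against 15.2%, and 85% had one against 84.8%. Of the 64 HOX sites with a peak in LNCaP, 45 were in all 3 lists, or 70.3% (58.2 to 80.1), against 57.8% of LNCaP sites genome-wide. Sites in DMSO and the combination but not GSK2879552 numbered 7, or 10.9% (5.40 to 20.9), against 16.2%. Those in GSK2879552 and the combination alone numbered 4, and none was in DMSO and GSK2879552 alone, where the genome gave 3.35% and 1.8%. DMSO alone had 3 sites, GSK2879552 alone 1 and the combination alone 4, shares of 4.69%, 1.56% and 6.25% against 7.66%, 3.4% and 9.8%. These patterns share their lists, and the GSK2879552 list was the shortest of the 3.

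The order of site strength was compared as a description. Over the 45 HOX sites in both lists, Spearman's rho between DMSO and GSK2879552 percentiles was 0.81, as it was over the 56806 sites of the genome. Between shCTL and shSETD7 it was 0.74 over 53 HOX sites and 0.63 over 37133 sites. Between vehicle 22Rv1 and LNCaP DMSO it was 0.54 over 24 HOX sites and 0.39 over the genome. Neighbouring sites share chromatin and library and are not independent.

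SETD7 peaks were rare in the HOX windows. There were 5, of which 4 were in HOXC, 1 in HOXA and none in HOXB or HOXD, with scores of 19 to 38 against a list median of 28. HOXC held 12.5 SETD7 peaks per Mb and HOXA 3.13, where chromosomes 12 and 7 held 19.3 and 18.8. On chromosomes 17 and 2 the list had 3.28 and 3.19 per Mb, a low density that the empty HOXB and HOXD windows share. None of the 5 was above percentile 90, against 9.63% of the list. None overlapped a vehicle, shCTL or DMSO FOXA1 peak, against 5.86%, 7.89% and 2.58% of all SETD7 peaks, and a count of 0 of 5 allows a share of up to 60%. The 4 HOXC peaks were at chr12:54242649-54243066, chr12:54256138-54256479, chr12:54264609-54264886 and chr12:54317241-54317510, at percentiles 74.6, 14.9, 63.3 and 52.7. Their nearest vehicle FOXA1 peaks were 2.04 to 4.84 kb away. The HOXA peak at chr7:27336852-27337127, at percentile 49.9, overlapped an shSETD7 FOXA1 peak that was itself at 2.14, and no other FOXA1 peak. With it 1 of 5 SETD7 peaks had an shSETD7 FOXA1 peak, against 15.5% of the list.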

How the data were processed

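Peak lists of 7 chromatin immunoprecipitation libraries, 1 per group, were used as deposited. Per the submitters' processing notes, the tools were MACS2 2.1.4, SAMtools 1.9, BWA 0.7.17-r1188 and FastQC 0.11.9 and the build was hg19. Caller settings, peak threshold and input (not given in the sources used here) could change which peaks are listed. A whole-number score per peak is deposited, of no stated definition, so scores were used only for percentiles within a list (mean ranks for ties). Groups came from sample titles.

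The members and windows were chosen with earlier results of these data known. A peak belonged to a window by its midpoint and was shared when it overlapped another list's peak by at least 1 bp. Shares have 95% Wilson intervals. Shares at the same score deciles weight the whole list's share in each of 10 deciles by the HOX peaks there; the 1 Mb comparisons, those without HOXA and those above percentile 50 were added after the data were examined. The floor for a count of 0 is 3 peaks.

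Named sites were, by rule, the 3 per cluster in the most FOXA1 lists (ties by median percentile), the 3 highest-scoring peaks present in only 1 of shCTL and shSETD7, or of DMSO and GSK2879552, for each list, and SETD7 peaks at FOXA1 peaks. Alternatives tried were windows without their outer 50 kb, percentiles by chromosome, lists of equal size, lists without their lower-scoring 50%, and reciprocal or midpoint overlap. Nearest-gene annotation needs hg19 gene positions, not used here. All 38 symbols matched RefSeq's table (GRCh38.p14), used for names and promoter sequences. Computation was in Python 3.11.15 (matplotlib 3.10.9, scipy 1.17.1, pandas 2.3.3, numpy 2.4.6). Overlap counts were checked: the 37413 shared shCTL peaks and 193692 merged sites were the same with bedtools 2.31.1, and the code was tested on simulated data.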

Additional observations from a re-analysis of the deposited data

How the results depend on the processing

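Of 54 alternatives over 16 results, 48 left the value within the counting interval of the reported one or, for counts of sites, within 1.5 times of it, and 6 moved it. With equal-sized lists the share of DMSO peaks with a GSK2879552 peak was 90.7%, against 81.4% for all peaks of the shortened DMSO list. In the higher-scoring 50% of each list, sites in all 6 FOXA1 lists numbered 9, and FOXA1 sites numbered 26 in HOXA, 23 in HOXB, 20 in HOXC and 7 in HOXD; shorter lists lower these counts by construction. The share of shCTL peaks with an shSETD7 peak ran from 58.2% (reciprocal 50% overlap) to 75% (higher-scoring 50%) in the windows, against 38.5% and 50.6% for the whole list. Without the outer 50 kb of each window, 1 SETD7 peak was left. Depth, unknown here, limits every share. No paired analysis was possible because each group has 1 library.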

Other observations

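The window borders were set by position, with peaks close to them on both sides. The nearest peaks inside the left borders of HOXA, HOXB, HOXC and HOXD had percentiles of 29.8, 69.0, 26.9 and 52.0 within their lists, and the nearest outside had 20.9, 52.0, 30.3 and 19.2. Inside the right borders they had 49.9 (a SETD7 peak), 5.51, 77.5 and 12.03, and outside 7.28, 24.3, 40.2 and 17.1. Spacing differed between the clusters: the median gap between neighbouring FOXA1 sites was 3.96 kb in HOXA, 6.17 kb in HOXB, 5.52 kb in HOXC and 16.7 kb in HOXD. The longest stretch with no FOXA1 site in any list was 55.9 kb in HOXA (27068911 to 27124856), 39.9 kb in HOXB (46625017 to 46664910), 29.2 kb in HOXC (54496331 to 54525531) and 75.8 kb in HOXD (177058125 to 177133899). HOX peaks had median widths near those of the other peaks of their list, at 267 bp against 262 bp in vehicle, 392 bp against 357 bp in shSETD7 and 271 bp against 263 bp in GSK2879552.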
